A study of Homo sapiens with 6 samples.

Results

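Immediate early genes are switched on by growth factors, serum and stress without new protein synthesis, through kinases such as ERK that act on transcription factors already in the cell. Many of their products are transcription factors, and others damp the same kinase cascade, so that the response is brief. Their mRNAs are short-lived as a rule and often carry AU-rich elements, to which decay factors bind. In HEK293 cells, as in other cultured lines, they are widely used as readouts of serum and growth factor signalling.

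The 5 genes described here are IER3, DUSP6, NR4A2, KLF4 and KLF6, out of 11584 genes with a named probe set on the arrays. Each was read by 1 of the probe sets with 1 gene symbol, 5 of the 13008 in the deposited table. They were picked by name, with earlier results of these arrays known, among them the difference between knockdown cells and mock cells without induction. Their differences between knockdown and mock cells are therefore given as a description, with no test. All 5 were in the table, and all of that table but 1 probe set lay above 5 on at least 2 arrays, so a gene could be listed through the group in which it was high. NR4A2 reached that mark only with its knockdown arrays.

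The arrays, Affymetrix Human Genome U133 Plus 2.0, measured total RNA of the HEK293 T-REx Flp-In line, which derives from human embryonic kidney and holds a FLAG/HA-tagged LIN28B transgene under doxycycline control, selected with hygromycin. LIN28B binds RNA and keeps let-7 microRNA precursors from being processed. There were 2 arrays in each of 3 groups. The knockdown cells were transfected with siRNA, with the transgene not induced. The induced cells were mock transfected and labelled as induced, and the not induced cells were mock transfected and labelled as not induced. All 3 groups carried the same transgene, whose induction is described with 250 ng/ml doxycycline for 15 to 20 h before crosslinking, with no time given for the RNA on these arrays. No array of cells with a non-targeting siRNA is used here, and the effects of transfecting an siRNA and of losing LIN28B cannot be told apart. The labels do not say whether replicates were separate cultures, and the p-values then cover only array-to-array spread, which may be technical.

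LIN28B itself read 7.51 and 7.53 on the knockdown arrays, 10.15 and 10.11 on the induced arrays, and 10.02 and 9.85 on the not induced arrays (log2 values), so the knockdown arrays held 18.7% of the not induced level. Between induced and not induced arrays the LIN28B probe set differed by only 0.19 (SE 0.08, limma adjusted p = 0.999), so the arrays hardly show the labelled induction. Whether that probe set reads the transgene was not tested. Arrays of one group correlated at 0.9899 to 0.9937 across probe sets. Of 10 markers listed for HEK293 cells, 8 had a probe set in the table, while NEFM and PHOX2A did not. In knockdown against not induced cells, limma called 3 of these 8, with NEFL at -0.59 (adjusted p = 0.000113), VIM at -0.18 (0.0121) and KRT8 at 0.38 (0.0271), where 28.0% of all genes were called. VIM lost its call without not induced replicate 2 or knockdown replicate 2, and KRT8 without not induced replicate 1 (0.24) or either knockdown array. With a variance prior that has no intensity trend VIM and KRT8 were not called either (limma adjusted p = 0.171 and 0.0582). The part of such shifts in the results was not tested. Of the markers of other cell types, 2 of 10 for fibroblasts, 2 of 10 for blood cells and 1 of 7 for endothelium had a probe set, and none of these 5 genes was called in any comparison. In RNA from whole cultures, fewer cells that express a gene and less RNA per cell cannot be told apart.

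The RefSeq table of promoters (build GRCh38.p14, 250 bases before to 50 after the start of each gene) held windows for 3 of the 5 genes, and they are shown because KLF4 and KLF6 are paralogs that were both low in the knockdown while DUSP6 was high. Capitals mark matches on either strand to GGGCGG, the GC box bound by SP and KLF factors, to CACGTG, an E-box, and to CCAAT. All 3 genes lie on the minus strand, and the sequences are written 5′ to 3′ on it.
KLF4, chr9:107489720-107490019: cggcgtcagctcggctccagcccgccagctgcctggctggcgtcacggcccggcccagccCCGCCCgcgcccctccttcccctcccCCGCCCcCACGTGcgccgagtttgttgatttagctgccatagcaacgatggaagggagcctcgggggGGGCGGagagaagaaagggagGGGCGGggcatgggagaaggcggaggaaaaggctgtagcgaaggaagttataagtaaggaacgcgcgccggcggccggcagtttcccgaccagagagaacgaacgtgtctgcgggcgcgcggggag
KLF6, chr10:3785160-3785459: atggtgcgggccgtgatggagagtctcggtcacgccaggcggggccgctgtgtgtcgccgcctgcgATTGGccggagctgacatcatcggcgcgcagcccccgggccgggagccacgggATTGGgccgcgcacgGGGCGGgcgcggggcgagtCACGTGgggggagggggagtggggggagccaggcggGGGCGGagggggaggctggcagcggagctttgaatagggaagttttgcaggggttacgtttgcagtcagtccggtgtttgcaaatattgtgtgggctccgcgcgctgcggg
DUSP6, chr12:89352452-89352751: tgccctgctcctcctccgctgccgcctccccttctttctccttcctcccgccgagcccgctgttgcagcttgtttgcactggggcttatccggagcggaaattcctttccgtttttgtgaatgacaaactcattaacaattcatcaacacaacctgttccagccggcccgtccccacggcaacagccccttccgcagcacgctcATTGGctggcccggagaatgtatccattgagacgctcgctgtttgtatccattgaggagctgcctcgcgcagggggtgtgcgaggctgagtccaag

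The KLF4 window held 4 matches to GGGCGG and the KLF6 window 2, against 0 in the DUSP6 window. Of all 35116 promoter windows in the table, which stand for 27305 genes, 45.0% held at least 1. CACGTG stood once in the KLF4 window and once in the KLF6 window, and 7.26% of all windows held it. CCAAT stood 2 times in the KLF6 window and 1 time in the DUSP6 window, with a share of 34.6% over all windows. The windows of KLF4 and KLF6 were 69.0% and 70.7% G or C, against 58.3% for DUSP6 and a median of 58.7% over all windows. Both strands were also searched for the cyclic AMP response element TGACGTCA, the AP-1 site TGACTCA, the ETS site CCGGAAGT, the TATA sequence TATAAA and the CArG box bound by serum response factor, and these letters were not in any of the 3 windows. Their shares over all windows were 1.85%, 4.95%, 4.14%, 11.5% and 1.29%. The motifs marked in capitals did not overlap one another.

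The 5 genes split by direction. On the knockdown arrays IER3, DUSP6 and NR4A2 read higher than on either set of mock arrays, and KLF4 and KLF6 read lower. In each of these 5 genes the knockdown arrays lay apart from all 4 mock arrays. This is a description of genes chosen with that difference known. The share of all genes whose knockdown arrays lie apart in this way was not counted.

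IER3 encodes a short-lived protein that modulates cell survival and ERK signalling. Its log2 values were 8.85 and 8.97 on the knockdown arrays, 7.51 and 7.58 on the induced arrays, and 7.58 and 7.62 on the not induced arrays. Both knockdown arrays lay well above the 4 mock arrays. The mean was 8.91 ± 0.08 in knockdown cells and 7.60 ± 0.02 in not induced cells (SD, n = 2 each), a log2 difference of 1.31 (SE 0.09), or 2.48-fold. It was the 32nd largest rise of 11584 genes.

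DUSP6 encodes a cytoplasmic phosphatase that switches off ERK and is itself induced by ERK signalling. It read 7.38 and 7.41 on the knockdown arrays, 6.65 and 6.62 on the induced arrays, and 6.58 and 6.17 on the not induced arrays. The not induced arrays were 0.41 apart, the widest gap within a group among the 5 genes, while the other pairs were 0.03 apart. The log2 difference between knockdown and not induced cells was 1.02 (SE 0.14), or 2.03-fold. Leaving out not induced replicate 1 gave 1.23, and leaving out not induced replicate 2 gave 0.82.

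NR4A2 encodes an orphan nuclear receptor, a transcription factor that acts without a known natural ligand. It had the lowest values of the 5 genes: 5.77 and 5.94 on the knockdown arrays, 4.60 and 4.93 on the induced arrays, and 4.78 and 5.13 on the not induced arrays. The induced and not induced arrays overlapped. Of the mock arrays only not induced replicate 2 lay above 5, so the gene could be listed through its high knockdown arrays, and its mock values are low and uncertain. Replicate 1 read lower than replicate 2 in each group, by 0.17, 0.33 and 0.35 in the knockdown, induced and not induced cells. The log2 difference between knockdown and not induced cells was 0.90 (SE 0.20), or 1.87-fold.

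KLF4 encodes a zinc finger transcription factor best known as a pluripotency and differentiation regulator. Its log2 values were 6.07 and 6.27 on the knockdown arrays, 6.58 and 6.58 on the induced arrays, and 6.77 and 6.93 on the not induced arrays. The 3 groups did not overlap, and the induced arrays lay between the others, as they did for DUSP6. The share of all genes with the groups in such an order was not counted. The log2 difference between knockdown and not induced cells was -0.68 (SE 0.13), which leaves 0.625 of the not induced level.

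KLF6 encodes another zinc finger transcription factor of the same family, described as a growth regulator. It read 6.45 and 6.63 on the knockdown arrays, 6.95 and 7.11 on the induced arrays, and 6.96 and 7.03 on the not induced arrays. The values of induced and not induced cells overlapped and both sets lay above the knockdown arrays. The log2 difference between knockdown and not induced cells was -0.45 (SE 0.12), which leaves 0.731 of the not induced level and is the smallest of the 5 differences. Of 11584 genes, KLF4 had the 515th largest fall and KLF6 the 1157th.

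**Figure D1:**
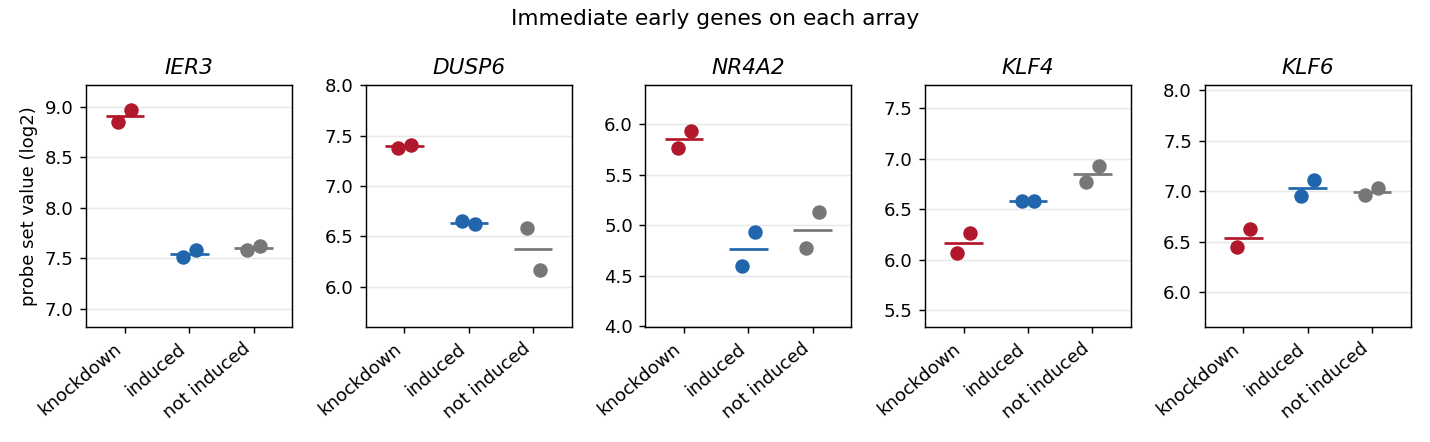
Log2 probe set value (vertical axis, each panel spanning the same range around its gene's mean) of the 5 genes on each array, in knockdown, induced and not induced cells; points are arrays and lines are group means (n = 2). Both knockdown arrays lie above the mock arrays for IER3, DUSP6 and NR4A2 and below them for KLF4 and KLF6.

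The order of the groups could be set against the induced cells as well, which share the knockdown arrays with the comparison above. The log2 differences between knockdown and induced cells were 1.37 for IER3 (SE 0.09), 0.76 for DUSP6 (SE 0.14), 1.09 for NR4A2 (SE 0.20), -0.41 for KLF4 (SE 0.13) and -0.49 for KLF6 (SE 0.12). Set against the mean of both mock groups, the differences were 1.34, 0.89, 1.00, -0.54 and -0.47 in the same order of genes. The estimates for NR4A2, IER3 and KLF6 were thus slightly larger against the induced cells than against the not induced cells, and those for DUSP6 and KLF4 smaller.

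The comparison of induced with not induced cells shares the not induced arrays with the difference known when the 5 genes were chosen, so it is given for them as a description too. Over the whole table limma called 0 of 11584 genes, or 0.0%, and 344 had an unadjusted p under 0.05. The log2 differences were 0.27 for DUSP6 (SE 0.14), -0.27 for KLF4 (SE 0.13), -0.19 for NR4A2 (SE 0.20), -0.06 for IER3 (SE 0.09) and 0.03 for KLF6 (SE 0.12). The value of DUSP6 depended on the not induced arrays, being 0.47 when not induced replicate 1 was left out and 0.06 when not induced replicate 2 was. That of NR4A2 ranged between -0.37 without not induced replicate 1 and -0.01 without not induced replicate 2, and was -0.03 without induced replicate 1 and -0.36 without induced replicate 2.

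**Figure D2:**
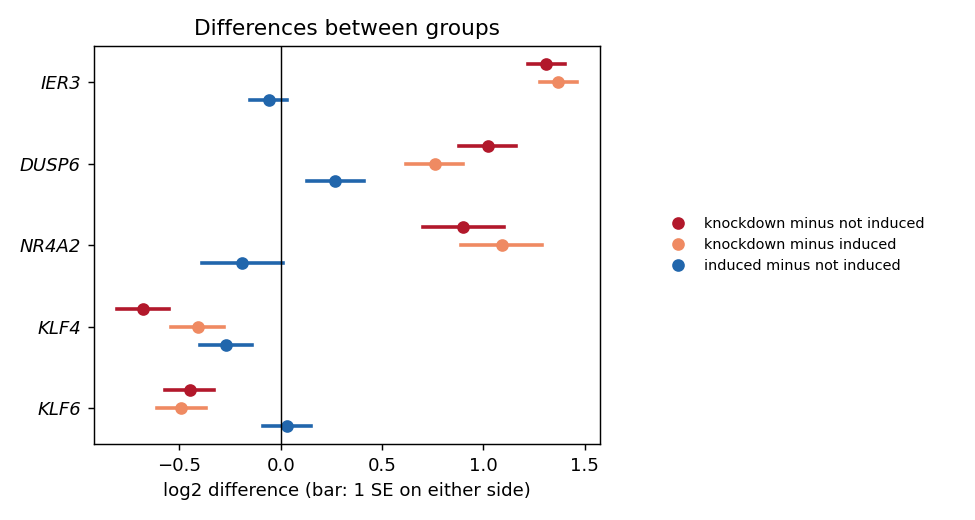
Log2 differences of the 5 genes (points) with 1 SE from limma on either side (bars) for knockdown minus not induced, knockdown minus induced and induced minus not induced cells. The comparisons share arrays; the points of induced minus not induced lie between -0.27 and 0.27.

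Likeness of pattern was measured as the root mean square difference between 2 genes over the 6 arrays after each gene was centred on its own mean, as a description with no test. The profile nearest to IER3 was that of the linker histone gene H1-2 (0.060 on the log2 scale), followed by TTC17 (0.080) and the centromere protein gene CENPQ (0.083). Nearest to DUSP6 were the kinetochore gene SKA1 (0.037), the cell polarity gene PARD6B (0.082) and ZNF709 (0.084). NR4A2 was nearest to ATOH7, a transcription factor gene of retinal development (0.066), to TSHZ1 (0.080) and to ITGB1BP2 (0.086).

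KLF4 was nearest to ICA1 (0.044), RPRD1B (0.053) and the plexin receptor gene PLXND1 (0.053). KLF6 was nearest to the microtubule-binding protein gene MAP4 (0.024), MSANTD2 (0.028) and the casein kinase gene CSNK1G2 (0.031). Among the 5 genes themselves, NR4A2 was the 65th gene in likeness to IER3, and IER3 was the 115th to NR4A2 and the 938th to DUSP6. KLF6 was the 296th in likeness to KLF4, and KLF4 the 1240th to KLF6, out of 11584 genes. This measure counts the size of a change as well as its shape. Pearson's r over the 6 arrays, of which the 2 knockdown arrays lie apart from the others in each gene, was 0.960 for IER3 with NR4A2, 0.918 for DUSP6 with IER3 and 0.878 for KLF4 with KLF6, as a description.

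The wider immediate early and ERK pathway genes were laid out in 7 lists of 214 genes, of which 166 beside the 5 genes were in the table. Of these 166, limma called 45 at an adjusted p under 0.05 in knockdown against not induced cells, 22 higher and 23 lower, or 27.1%. Over all genes 28.0% were called, with 13.5% higher and 14.5% lower, so the share was near the background. The median log2 difference of the 166 was 0.055, beside 0.006 over all genes. The count fell when either knockdown array was left out, and the count over all genes fell in the same fits. In knockdown against induced cells 51 of the 166 were called, 26 higher and 25 lower, with 28.4% called over all genes.

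Among immediate early transcription factors, 23 genes beside NR4A2, KLF4 and KLF6 were in the table. Of these 2 rose, 5 fell and 16 did not pass, or 30.4% called, with 28.0% over all genes and a median log2 difference of 0.053. MYC, which drives growth and proliferation, read 8.66 and 8.66 on the knockdown arrays, 9.65 and 9.68 on the induced arrays, and 9.61 and 9.96 on the not induced arrays. Its knockdown arrays lay below all mock arrays, and it fell by 1.13 (SE 0.10, limma adjusted p = 0.000108). ID1 and ID3, which encode inhibitors of basic helix-loop-helix factors, fell by 0.97 and 0.52.

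EGR1, a zinc finger factor and a textbook ERK target, read 6.66 and 6.54 on the knockdown arrays, 5.76 and 6.05 on the induced arrays, and 5.64 and 6.00 on the not induced arrays. Its knockdown arrays lay above all mock arrays, and it rose by 0.78 (SE 0.17, limma adjusted p = 0.00694). EGR1 lost its call without knockdown replicate 1 (0.72, adjusted p = 0.0625). The number of factors called higher was 0 without knockdown replicate 1 and 1 without knockdown replicate 2. The number called lower was 3 without knockdown replicate 1 and 3 without not induced replicate 2.

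Among immediate early genes of other function, 28 beside IER3 were in the table, of which 6 rose, 3 fell and 19 did not pass, or 32.1% called beside 28.0% of all genes (median 0.096). The glucose transporter gene SLC2A3 rose by 1.11 (SE 0.16, limma adjusted p = 0.00101). It read 6.37 and 6.37 on the knockdown arrays, 4.95 and 5.13 on the induced arrays, and 5.13 and 5.39 on the not induced arrays. The synaptic scaffold gene HOMER1 fell by 1.02 and the pseudokinase gene TRIB1 by 0.79. These 3 genes were called under every alternative listed in the closing section. The number called higher in this list was 3 without knockdown replicate 1.

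DUSP6 belongs to the genes by which ERK signalling limits itself, and 22 others of these were in the table. Of them 0 rose, 3 fell and 19 did not pass, or 13.6% called. Over all genes 28.0% were called, 13.5% higher and 14.5% lower. In either direction 10 of the 22 had an unadjusted p under 0.05, beside 4562 of 11584 genes. With the arrays centred on their medians or quantile normalized, 1 was called higher. The same count came with the filter above 6 on at least 2 arrays and with a variance prior that has no intensity trend. IL17RD, which encodes a membrane inhibitor of FGF signalling, read 5.49 and 5.71 on the knockdown arrays, 6.69 and 6.36 on the induced arrays, and 6.56 and 6.44 on the not induced arrays. It fell by 0.90 (SE 0.15, limma adjusted p = 0.00238). SPRY1, an inhibitor of receptor tyrosine kinase signalling, fell by 0.46, and the ETS factor gene ETV4 by 0.44 with a limma adjusted p of 0.0489.

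SPRY1 lost its call without knockdown replicate 1 (-0.30) and without not induced replicate 2 (-0.37), and also without either induced array (-0.46 in both). ETV4 lost it without any 1 of the 6 arrays (adjusted p between 0.0807 and 0.193), and with arrays centred on their medians (0.0608). The number of feedback genes called lower was 1 without knockdown replicate 1 and 1 without induced replicate 2. In knockdown against induced cells 2 of the 22 were called higher and 4 lower, or 27.3%. Over all genes 28.4% were called in that comparison, 14.0% higher and 14.5% lower, so the share was near the background. The count fell when any knockdown or induced array was left out.

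DUSP6 also belongs to a family of phosphatases. Of 17 other dual specificity phosphatase genes with a probe set 0 rose, 3 fell and 14 did not pass, and 8 had an unadjusted p under 0.05. Over all genes 28.0% were called and 4562 of 11584 had such a p. Those that passed were DUSP11 (-0.34), DUSP28 (-0.29) and DUSP12 (-0.22), which are atypical members and not known as ERK feedback phosphatases. All 3 lost their call without knockdown replicate 1 or 2 and without not induced replicate 1, as well as with a variance prior that has no intensity trend, and the count was 1 without induced replicate 2. DUSP5, the nuclear ERK phosphatase, read 7.08 and 6.82 on the knockdown arrays, 6.61 and 6.46 on the induced arrays, and 6.62 and 6.64 on the not induced arrays, a difference of 0.32 from not induced cells (limma adjusted p = 0.0975), or 0.19 without knockdown replicate 1. In knockdown against induced cells DUSP5 had 0.41 and was called (limma adjusted p = 0.0394). In that comparison 1 of the 17 was called higher and 3 lower, beside 14.0% and 14.5% of all genes.

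DUSP4, also nuclear, had a difference of -0.42 and DUSP7, which like DUSP6 acts on ERK in the cytoplasm, -0.42 (limma adjusted p = 0.108 and 0.0626). The values of DUSP1, DUSP3, DUSP8, DUSP9, DUSP10 and DUSP16 were 0.21, -0.16, 0.40, 0.29, 0.22 and -0.11, with limma adjusted p between 0.126 and 0.646. Single arrays moved several of these. Leaving out not induced replicate 1 gave -0.19 for DUSP4, -0.03 for DUSP3, 0.25 for DUSP8 and 0.62 for DUSP9. Leaving out not induced replicate 2 gave -0.66 for DUSP4, -0.28 for DUSP3 and -0.05 for DUSP9. Leaving out knockdown replicate 1 gave -0.13 for DUSP1, -0.28 for DUSP3 and 0.24 for DUSP8, and leaving out knockdown replicate 2 gave 0.55 for DUSP1, -0.03 for DUSP3 and -0.07 for DUSP16. Without not induced replicate 1, 1 phosphatase gene of the list was called higher.

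KLF4 and KLF6 belong to a family of 18 KLF genes, of which 10 others were in the table. Of these 10, 1 rose, 3 fell and 6 did not pass, or 40% called, with 28.0% over all genes. Their median log2 difference was -0.289, and 8 of 10 had a negative difference, against 5701 of 11584 over all genes. KLF10 counts among these 8 although it stood at 0.9999 of the not induced level, so its sign carries no direction. KLF3, a repressor of the family, read 7.0 and 6.95 on the knockdown arrays, 8.09 and 8.10 on the induced arrays, and 7.90 and 8.01 on the not induced arrays. It fell by 0.98 (SE 0.10, limma adjusted p = 0.000142), more than either KLF4 or KLF6. KLF15, a regulator of glucose and amino acid metabolism, fell by 0.82 (SE 0.12, limma adjusted p = 0.00131). KLF9 fell by 0.56, and KLF11, a TGF-beta inducible repressor, rose by 0.74.

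KLF9 lost its call without knockdown replicate 2 (-0.51, limma adjusted p = 0.0686) and KLF11 without knockdown replicate 1 (0.63, limma adjusted p = 0.0947), so that 0 family members were then called higher. The genes that did not pass were KLF13 (-0.47), KLF5 (-0.31), KLF16 (-0.27), KLF7 (0.25), KLF12 (-0.08) and KLF10, whose difference was below 0.01 in size with an SE of 0.29. Without not induced replicate 1 KLF13 had -0.73 and KLF7 0.43, and without not induced replicate 2 they had -0.22 and 0.07 and KLF12 had -0.04. KLF10, a TGF-beta inducible early gene, read 7.46 and 6.45 on the not induced arrays, so little can be said of it. It was 0.51 without not induced replicate 1 and -0.51 without replicate 2. Of the NR4A family, NR4A1 was the only other member in the table. It read 6.02 and 5.65 on the knockdown arrays, 5.64 and 6.13 on the induced arrays, and 5.91 and 5.95 on the not induced arrays, with no difference beyond the spread (-0.09, 95% interval -0.53 to 0.34, limma adjusted p = 0.764), and -0.28 without knockdown replicate 1. Its probe set can pick up related transcripts, and those of KRT8, DUSP8, MAPK3, SKA1 and ICA1 are of the same kind.

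**Figure D3:**
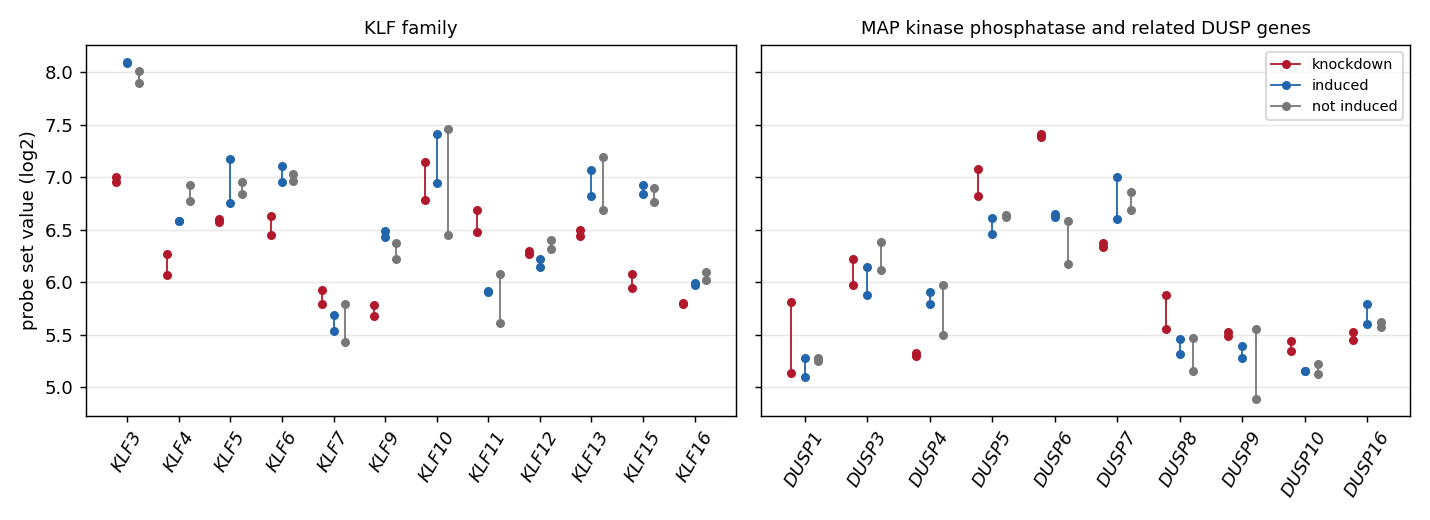
Log2 probe set values of the KLF genes and of the DUSP genes in the table on each array (2 points joined by a line per group; knockdown left, induced centre, not induced right for each gene). Positions compare groups within a gene, and levels of different genes are not comparable. Both knockdown arrays lie below all mock arrays for KLF3, KLF4, KLF5, KLF6, KLF9, KLF13, KLF15, KLF16, DUSP4, DUSP7 and DUSP16. They lie above all mock arrays for KLF11, DUSP5, DUSP6, DUSP8 and DUSP10. Not all of these genes passed the test, and the share of all genes whose knockdown arrays lie apart in this way was not counted.

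Upstream of the 5 genes stand growth factors and their receptors, of which 22 were in the table. Of these 2 rose, 4 fell and 16 did not pass, or 27.3% called beside 28.0% of all genes (median -0.043). FGFR3, a receptor for fibroblast growth factors, read 7.54 and 7.44 on the knockdown arrays, 8.56 and 8.60 on the induced arrays, and 8.42 and 8.50 on the not induced arrays, and fell by 0.97 (SE 0.09, limma adjusted p = 0.000108). EGFR, the receptor of epidermal growth factor, fell by 1.05 (SE 0.19) and was at 4.30 and 3.99 on the knockdown arrays, in the lowest part of the scale. Its ligand gene TGFA fell by 0.90 and the EGFR relative ERBB3 rose by 0.75. HBEGF, another EGFR ligand gene and itself immediate early, was picked after its value was seen and rose by 0.65.

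TGFA lost its call without not induced replicate 1 (-0.54) and without either knockdown array (-0.85 and -0.96). ERBB3 lost it without not induced replicate 2 (0.45) and without either knockdown array (0.66 and 0.83), and HBEGF without knockdown replicate 1 (0.47). With a variance prior that has no intensity trend ERBB3 was not called (limma adjusted p = 0.0708). The number called higher in this list was 0 without knockdown replicate 1 and 1 without knockdown replicate 2, and the number called lower was 2 without knockdown replicate 2.

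Between receptor and nucleus lies the RAS to ERK cascade, with 28 genes in the table, of which 3 rose, 4 fell and 21 did not pass, or 25% called beside 28.0% of all genes (median 0.068). With the arrays centred on their medians 6 were called higher and 2 lower, so no direction is given for the list. RPS6KA4, which encodes a kinase below ERK that phosphorylates CREB and histone H3, fell by 0.76 (SE 0.13, limma adjusted p = 0.00245). HRAS fell by 0.45, while the scaffold gene SHOC2 rose by 0.47 and the RAS exchange factor gene SOS1 by 0.41. HRAS, SHOC2 and SOS1 each lost their call without knockdown replicate 1 and without replicate 2, SOS1 also without not induced replicate 2, where it had 0.31, and HRAS had -0.29 there. Without knockdown replicate 1 or 2 the list had 0 genes called higher and 1 lower, and without either induced array it had 2 lower.

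Among 19 regulators that act at immediate early promoters, 5 rose, 1 fell and 13 did not pass, or 31.6% called beside 28.0% of all genes (median 0.135). ELK4, an ETS factor that binds with serum response factor, read 5.64 and 5.58 on the knockdown arrays, 5.08 and 5.14 on the induced arrays, and 4.81 and 4.80 on the not induced arrays. It rose by 0.80 (SE 0.16, limma adjusted p = 0.00491). The transcription factor gene CREB1 fell by 0.57, and the coactivator genes CREBBP and MED23 rose by 0.48 and 0.40. CREBBP lost its call without not induced replicate 1 (0.31) and without either knockdown array, and MED23 without not induced replicate 2 (0.28) and without any knockdown or induced array. With a variance prior that has no intensity trend CREBBP was not called (limma adjusted p = 0.0606). The list had 2 called higher without knockdown replicate 1, 1 without knockdown replicate 2, and 3 without either induced array.

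Of 24 factors that bind AU-rich elements or degrade mRNA, 4 rose, 3 fell and 17 did not pass, or 29.2% called beside 28.0% of all genes (median 0.039). ELAVL2, which encodes a binding protein of the Hu family found mainly in neurons and germ cells, read 8.79 and 8.57 on the knockdown arrays, 7.56 and 7.21 on the induced arrays, and 7.45 and 7.36 on the not induced arrays. It rose by 1.28 (SE 0.13, limma adjusted p = 0.000171). The deadenylase gene CNOT6 fell by 0.89, and the decapping enzyme gene DCP2 rose by 0.55. ZFP36L1, which encodes a protein that promotes decay through AU-rich elements, rose by 1.01 (SE 0.27), but its knockdown arrays read 6.44 and 7.42. Without knockdown replicate 2 it had 0.52 and was not called (limma adjusted p = 0.107), and it lost the call without not induced replicate 1 too (0.84). DCP2 lost it without knockdown replicate 2 (0.48). With a variance prior that has no intensity trend ZFP36L1 was not called (limma adjusted p = 0.0607). The list had 1 called higher without knockdown replicate 2, 1 called lower without knockdown replicate 1, and 5 called lower without not induced replicate 1.

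**Figure D4:**
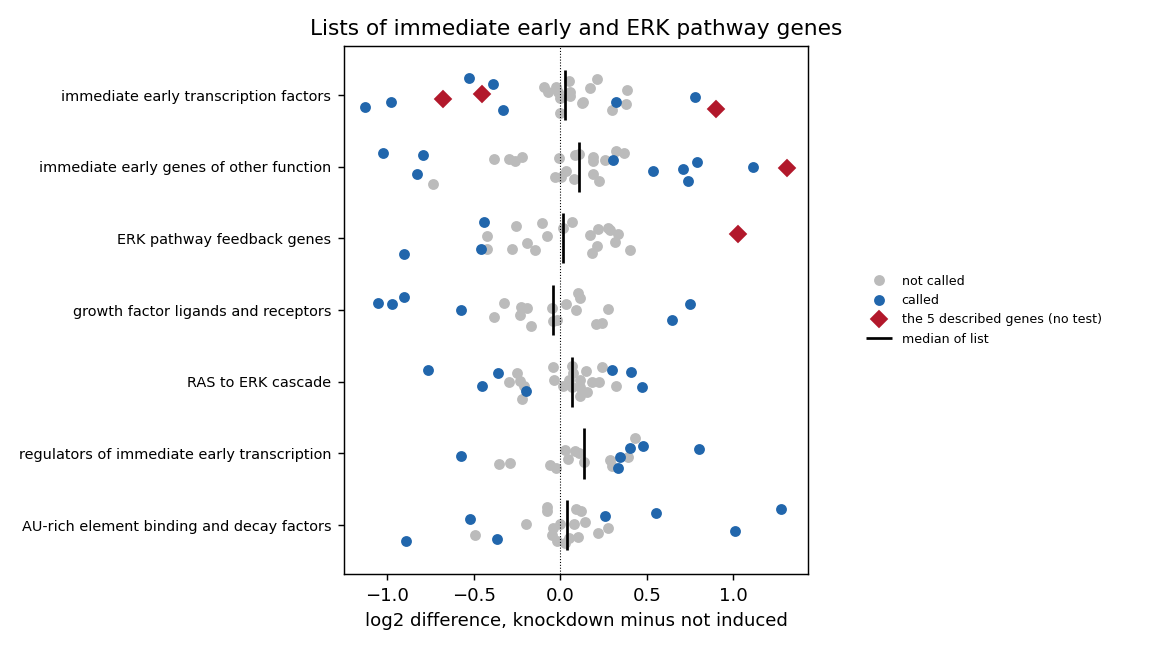
Log2 difference of each gene between knockdown and not induced cells in the 7 lists (1 row per list, points spread vertically at random); blue points passed the test, grey points did not, red diamonds are the 5 described genes and black lines are list medians, with the described genes included. The list medians lie between -0.043 and 0.135.

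In induced against not induced cells limma called none of the 166 genes of the 7 lists, beside 0 of all 11584 genes. Of the 166, 3 had an unadjusted p under 0.05, beside 344 of 11584. These 3, picked after their values were seen, were SPRED1, an inhibitor of RAS signalling (-0.70, SE 0.19), the growth factor gene HGF (-0.59, SE 0.24) and the kinase gene MAPK3, which encodes ERK1 (-0.25, SE 0.11), each with an adjusted p of 0.999 by limma. SPRED1 read 4.89 and 4.50 on the induced arrays and 5.25 and 5.54 on the not induced arrays, and 5.53 and 5.40 on the knockdown arrays.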

How the data were processed

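Total RNA, 2 µg per sample, was labelled with biotin and hybridised, per the labels' protocols. The authors deposited 1 log2 value for each probe set and array, made with affy and GCRMA per the submitters' processing notes, with versions and the rule that chose the 13008 probe sets not given in the sources used here. The base of the log was taken as 2. GCRMA corrects background and brings arrays to 1 distribution, so small values are uncertain and a shift common to most genes would be removed.

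Probe sets with 1 gene symbol (11719) were named through the platform annotation and updated to RefSeq (GRCh38.p14), and the set with the highest mean stood for a gene. Testing used limma 3.58.1 under R 4.3.3 (3 groups, 6 arrays, eBayes with intensity trend, two-sided, Benjamini-Hochberg over 11584 genes). SEs come from that model, which had 3 residual and 6.73 prior degrees of freedom. The code was tested on simulated data. The members and lists were chosen with earlier results of these data known. Named genes were the 5 members, LIN28B, up to 4 called genes per list (or the 2 of highest mean where none was called), other KLF and NR4A genes, DUSP1 to DUSP10 and DUSP16, and the 3 nearest profiles per member; 1 gene that this rule names is not reported here. HBEGF, SPRED1, HGF and MAPK3 were added after seeing their values, and DUSP11, DUSP12 and DUSP28 are the called genes of the phosphatase list. With 2 arrays a group, precision is low throughout. Alternatives changed the scaling, a filter on low values, the probe set per gene, the variance prior, the arrays fitted, a replicate block and each array in turn.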

Additional observations from a re-analysis of the deposited data

How the results depend on the processing

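In knockdown against not induced cells the count of 3242 called genes ranged between 1664 and 3143 when 1 array was left out, and in knockdown against induced cells the count of 3295 ranged between 1702 and 3951. In induced against not induced cells it was between 0 and 1. The count of 45 called among the 166 list genes ranged between 21 and 47. In these fits the lone array of a group is assumed to vary like the others. The other 7 alternatives kept these counts within 1.5 times. The 5 genes kept their direction in both knockdown comparisons under each alternative run, with log2 differences from not induced cells of 1.25 to 1.37 for IER3, 0.82 to 1.23 for DUSP6, 0.73 to 1.08 for NR4A2, -0.78 to -0.58 for KLF4 and -0.55 to -0.36 for KLF6. NR4A2 was removed by the filter that asks for a value above 6 on at least 2 arrays and has no value there. The difference of KLF6 between induced and not induced cells ranged between -0.045 and 0.114 when 1 array was left out, and turned sign without not induced replicate 1 (-0.002) and without induced replicate 2 (-0.045). No other probe set with 1 gene symbol read any of the 5 genes, so averaging probe sets changed nothing for them. Probe sets with several symbols were not used. Replicate numbers were not shown to pair samples: deviations of same-numbered arrays correlated at 0.181 for not induced with induced, -0.059 for not induced with knockdown and 0.012 for induced with knockdown. With the replicate number as a block, 3422, 3491 and 0 genes were called in the 3 comparisons, and 50 of the list genes. Of the genes named, ETV4 was not called with that block (adjusted p = 0.0607).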
